A study of Mus musculus with 45 samples.

Results

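Mouse hippocampal primary neurons received a short bath of N-methyl-D-aspartate (NMDA) while their action potentials were blocked, and the libraries of that condition were compared with those of the block alone. The members are the 10 libraries, of 45 in the series, labelled as the short protocol (SP) with tetrodotoxin (TTX) or with TTX and NMDA. All of these cultures came from newborn C57BL/6N mice, were grown with AraC from day in vitro 3 against dividing cells, and were treated on day 10 or 11 by the labels, the study's sequencing methods naming day 11. Both conditions began with 0.5 h of bicuculline (Bic, 50 µM), an antagonist of GABA type A receptors that sets off action potential firing. TTX (1 µM), a sodium channel blocker, was then added for 0.5 h to 5 libraries, and TTX (1 µM) together with NMDA (30 µM) was added for 0.5 h to the other 5 libraries, with Bic still present. The difference between them, TTX/NMDA against TTX, is what the study calls the active effect, since firing had stopped in both. Each condition was run once in each of 5 culture preparations, numbered 1, 3, 6, 7 and 8, so every NMDA library has a TTX partner from the same preparation. Untreated control libraries, libraries after 0.5 h or 1 h of Bic alone, and the long protocol (LP, 1 h of Bic, then 1 h with TTX or TTX/NMDA) serve below as reference, each with 5 libraries from the same preparations.

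NMDA receptors are glutamate-gated channels that pass calcium. Calcium that enters through synaptic NMDA receptors during firing drives kinases and factors such as CREB and SRF, which switch on immediate early genes and later effector genes. NMDA in the bath reaches receptors inside and outside synapses, and activation of the extrasynaptic receptors is known to oppose CREB signaling and to be toxic to neurons.

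Assigned counts ran from 23060670 to 74009760 reads in the SP TTX libraries and from 24411692 to 37251209 in the SP TTX/NMDA libraries. Values below are normalized read counts, scaled so that all libraries share 1 effective size, and they compare a gene between libraries, not genes with each other. All 10 neuronal marker genes were detected in each of the 10 libraries, the lowest being Elavl4 at 3642 or more. The endothelial marker Cldn5 was at 0 in 6 of the 10 libraries, and the microglial markers P2ry12 and Itgam stayed at or below 11.4 and 9.84. Astrocyte genes were present, with Apoe between 19043 and 42019.

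Within 0.5 h the NMDA bath shifted many transcripts, mostly by a small amount and more often down than up. Of 15705 genes tested 2548 (16.2%) were called, of which 1617 (10.3%) were lowered and 931 (5.93%) were raised at an adjusted p under 0.05 (edgeR quasi-likelihood test paired by culture preparation, Benjamini-Hochberg adjustment). The median log2 change of a lowered gene was -0.28, that of a raised gene was 0.29, and 79.4% of all genes tested stayed within 0.25 of 0. A loss of more than 1 on the log2 scale was seen in 38 of the lowered genes, and a gain of more than 1 in 34 of the raised genes. Among the lowered genes 1576 were below their TTX partner in every preparation, and among the raised genes 833 were above it in every preparation. Without the pairing the same test called 1063 genes lowered (6.77%) and 345 raised (2.2%), or 1071 (3.32%) and 308 (0.956%) of all 32229 genes with at least 1 read. Results given below as without the pairing come from the former of these fits unless stated. The count of raised genes also moved with single preparations: it was 283 without preparation 1, 367 without 3, 1743 without 6, 424 without 7 and 507 without 8. The corresponding counts of lowered genes were 827, 1162, 2136, 1126 and 1315.

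The genes that fell furthest were genes that neuronal firing induces. The 14 largest losses among well expressed genes were Ptgs2, Egr2, Tiparp, Fbxo33, Egr3, Spty2d1, Csrnp1, Nr4a2, Atf3, Kcnj2, Cfap43, Adamts1, Arl5b and Fosb, with log2 changes from -2.05 to -1.37. The ranking admitted only genes that moved the same way in all 5 preparations. Apart from Atf3 none had a TTX/NMDA value that reached the range of its TTX values, which choosing the largest losses favours.

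Ptgs2, the inducible cyclooxygenase that makes prostaglandins, stood at 1458, 1442, 1309, 1703 and 697 normalized counts under TTX in preparations 1, 3, 6, 7 and 8, and at 354, 349, 258, 387 and 207 under TTX/NMDA in the same order. It fell by 75.9% ± 3.62 (SD, n = 5 preparations), a log2 change of -2.05 (SE 0.08, adjusted p = 1.43e-07). Preparation 8 had the lowest Ptgs2 level in both conditions and lost a share close to that of the others. Egr2, a zinc finger transcription factor, stood at 2632, 3215, 2838, 2539 and 2852 under TTX and at 556, 902, 539.7, 777 and 809 under TTX/NMDA. The highest of the latter values was less than the lowest TTX value, and the log2 change was -1.97 (SE 0.10, adjusted p = 1.23e-06). Tiparp, a mono-ADP-ribosyltransferase, stood at 2259.6, 3075, 2618, 3285 and 2841 under TTX and at 540.3, 749, 811, 845 and 666 under TTX/NMDA. All 5 preparations lost a similar share, 74.3% ± 3.08 on average (SD), with a log2 change of -1.95 (SE 0.07, adjusted p = 7.1e-08). Fbxo33, an F-box protein that selects substrates for a ubiquitin ligase, stood at 3806, 5047, 4433, 4999 and 3883 under TTX and at 1019.8, 1209.7, 1205, 1412 and 1231 under TTX/NMDA. It fell in every preparation, with a log2 change of -1.85 (SE 0.06, adjusted p = 7.1e-08). Nr4a2, an orphan nuclear receptor, stood at 6760.1, 10002, 8608, 10303 and 10135 under TTX and at 2231, 3539, 3094, 3283 and 3389.6 under TTX/NMDA. Preparation 1 was lowest in both conditions, and the loss was again even, with a log2 change of -1.54 (SE 0.05, adjusted p = 7.1e-08).

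**Figure D1:**
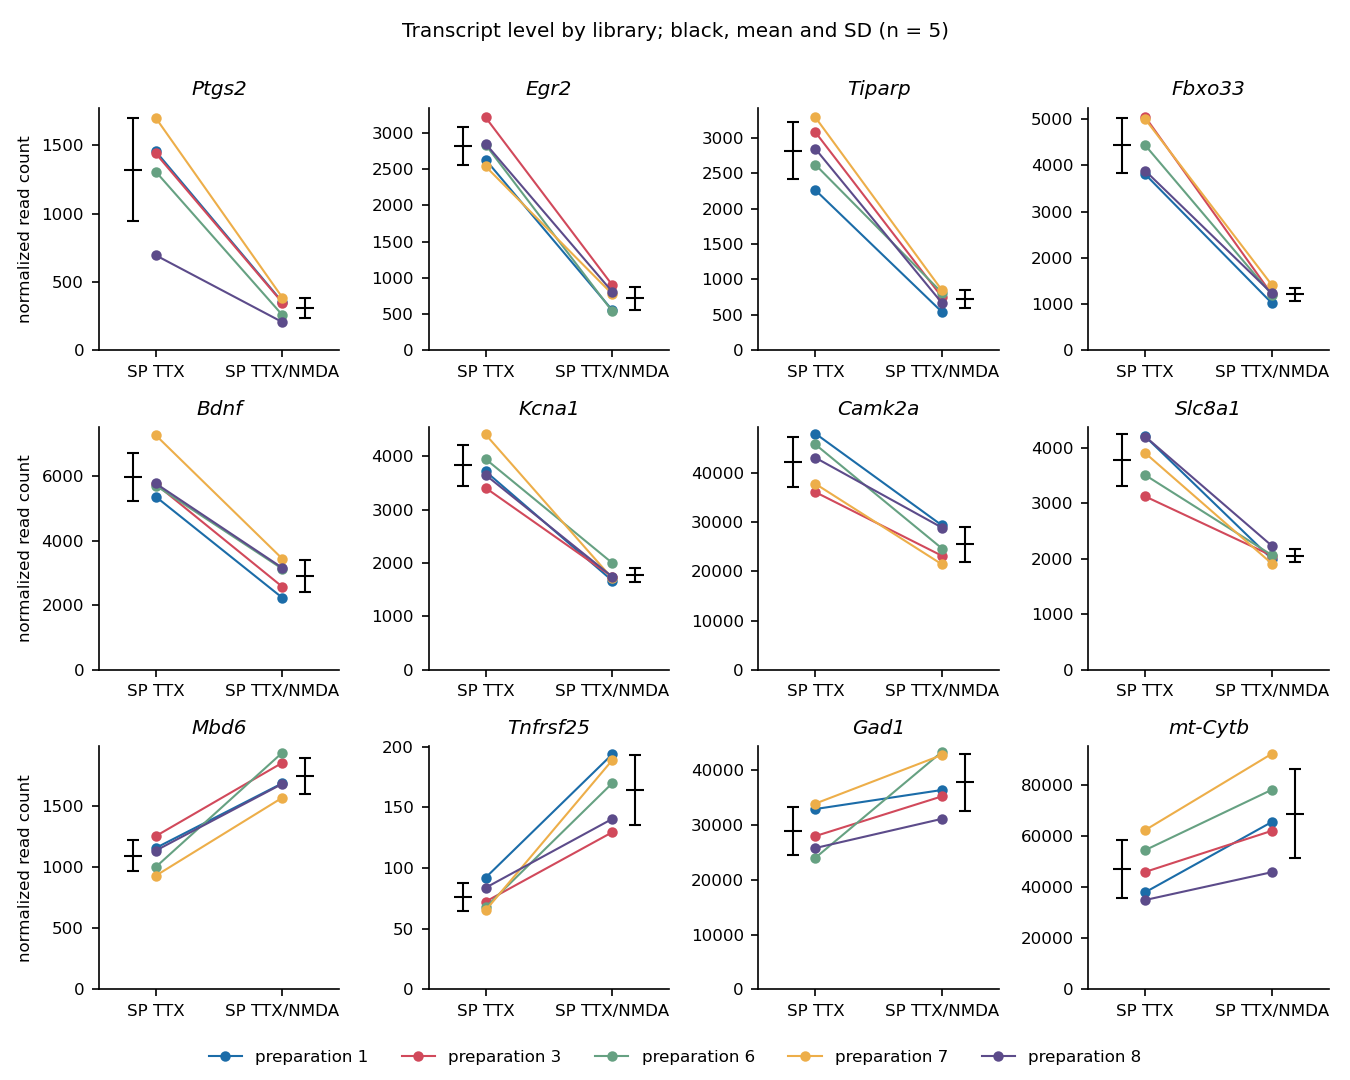
Normalized read counts (y axis, starting at 0) of 12 genes in the SP TTX and SP TTX/NMDA libraries (x axis). Coloured lines join the paired libraries of 1 culture preparation, and black bars give the mean and SD of 5 libraries. All lines fall for the first 8 genes (Ptgs2 to Slc8a1) and rise for Mbd6, Tnfrsf25, Gad1 and mt-Cytb.

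Of the 24 immediate early transcription factors listed, 22 were lowered and none was raised, with a median log2 change of -0.78 against 0.033 for all genes tested. Over all genes 10.3% were lowered and 5.93% raised, the shares against which the counts of this and the following lists stand. Fosb, a partner in the AP-1 complex, fell from 15786 ± 771 to 6074 ± 993 (mean ± SD, n = 5). Egr3 fell from 13175 ± 1302 to 4033 ± 913 and Csrnp1 from 761 ± 70.9 to 242 ± 48.8. Other members lost a smaller share of their transcripts. Egr1 stood at 27544, 27869.8, 24344, 25491 and 30734 under TTX and at 13100.5, 16043, 11911, 14578 and 15449.8 under TTX/NMDA, a log2 change of -0.92 (SE 0.06, adjusted p = 6.51e-06). Fos, the prototype immediate early gene, stood at 21585, 22703, 20125, 20734 and 20652 under TTX and at 12204, 16939.9, 11503, 16729 and 11859 under TTX/NMDA, a log2 change of -0.62 (SE 0.08, adjusted p = 0.000786). For both genes the lowest TTX value lay above the highest TTX/NMDA value. Npas4, a neuron-specific factor that responds to calcium influx, stood at 23705, 22216, 19381, 21928 and 24797 under TTX and at 14612, 18188, 13301, 17452 and 14294 under TTX/NMDA, a log2 change of -0.51 (SE 0.07, adjusted p = 0.00142). Preparation 3 lost the smallest amount of Npas4 and preparation 8 the largest. Nr4a1, another orphan nuclear receptor, stood at 15676, 16271, 14874, 15864 and 17279 under TTX and at 5833, 9299, 7038, 9719.9 and 6329 under TTX/NMDA, a log2 change of -1.08 (SE 0.11, adjusted p = 0.000135).

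Among the activity-regulated effectors, the genes that carry out the response at synapses and in signaling, 24 of 33 tested were lowered and none was raised, with a median log2 change of -0.65. Arc, which controls the removal of AMPA receptors from synapses, stood at 20159.5, 17036, 18335, 15339 and 24203 under TTX and at 9881, 8987, 5559, 8656 and 11271 under TTX/NMDA, a log2 change of -1.10 (SE 0.11, adjusted p = 0.000121). Bdnf, a neurotrophin that supports survival and plasticity, stood at 5358, 5748, 5702, 7260.2 and 5766 under TTX and at 2226, 2567, 3121, 3432 and 3153 under TTX/NMDA, a log2 change of -1.03 (SE 0.07, adjusted p = 7.77e-06). Every preparation lost close to the same share of Bdnf, 51.4% ± 5.95 on average (SD). Homer1, a postsynaptic scaffold whose short activity-induced isoform cannot be told from the long ones in gene-level counts, stood at 4472, 5298, 6166, 6369.9 and 5682 under TTX and at 3249, 3081, 3796, 3263 and 4160.2 under TTX/NMDA, a log2 change of -0.65 (SE 0.07, adjusted p = 0.000289). Inhba, a subunit of the TGF-beta family ligand activin A, stood at 436, 368, 509, 416 and 289.9 under TTX and at 242, 178, 291, 193 and 265 under TTX/NMDA, a log2 change of -0.75 (SE 0.13, adjusted p = 0.0033). Inhba values of the 2 conditions overlapped by a single TTX library, that of preparation 8. Trib1, a pseudokinase that binds MAP kinase kinases, fell from 1584 ± 80.7 to 761 ± 142 (SD, n = 5), and Btg2, an antiproliferative protein, from 8108 ± 849 to 4004 ± 746. Irs2, an adaptor of the insulin receptor, fell from 8333 ± 355 to 3735 ± 321.

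The hairpin gene models of Mir132 and Mir212, neighbouring microRNA genes that firing is known to induce through CREB, were lowered too. Their mature 3p products share a seed, bases 2 to 8, given here in capitals from RefSeq (GRCm38.p6, chromosome 11, plus strand) because both genes would act on targets through these letters.
miR-132-3p (chr11:75173723-75173744): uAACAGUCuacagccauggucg
miR-212-3p (chr11:75173443-75173464): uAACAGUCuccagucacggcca
Mir132 stood at 102, 79.7, 75.4, 73.1 and 118 normalized counts under TTX and at 60.8, 47.3, 32.8, 41.3 and 45.9 under TTX/NMDA, a log2 change of -0.98 (SE 0.14, adjusted p = 0.0013). Mir212 stood at 109, 82.7, 79.4, 92.6 and 113 under TTX and at 50.9, 48.7, 37.1, 60.0 and 55.2 under TTX/NMDA, a log2 change of -0.91 (SE 0.13, adjusted p = 0.00107). Neither gene overlapped between conditions. These libraries hold polyadenylated RNA counted over the hairpin models, and mature microRNA was not measured.

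Inhibitors that feed back on MAP kinase signaling were lowered in 9 of 20 cases (against 10.3% of all genes) and raised in none, with a median log2 change of -0.15. The members that moved most were phosphatases of MAP kinases and an inhibitor of EGF receptor kinase. Dusp5 stood at 980.3, 1047, 1129, 903 and 1386 under TTX and at 471, 514, 469.7, 563 and 673 under TTX/NMDA, a log2 change of -0.999 (SE 0.08, adjusted p = 2.89e-05). Errfi1 fell from 3526 ± 270.2 to 1756 ± 263 (SD, n = 5), Dusp4 from 3693 ± 297 to 2216 ± 421 and Dusp6 from 6230.4 ± 414 to 3793 ± 389. Dusp1 stood at 4488, 4027, 3216, 4024 and 3763 under TTX and at 2515, 3167, 2197, 3456 and 2299.7 under TTX/NMDA, a log2 change of -0.52 (SE 0.08, adjusted p = 0.00248), and its 2 conditions overlapped. Among 23 genes of the CREB pathway 9 were lowered and 1, Rcan2, was raised, while 5 were lowered without preparation 1 and without the pairing 4 were, Rcan2 not being called. The kinase Sik1, which restrains CREB coactivators, fell from 2828 ± 139 to 1733 ± 422. Among 21 genes of SRF and the actin cytoskeleton 4 were lowered and none was raised (2 and 0 without preparation 1, 3 and 4 without preparation 6), against 10.3% and 5.93% of all genes, led by Srf itself, which fell from 1882 ± 229 to 1146 ± 129.

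Set against the Bic libraries, the TTX/NMDA levels of these genes mostly lay at or below the level at the start of the bath. After 0.5 h of Bic, when the bath began in parallel cultures, Tiparp averaged 777 ± 212, and after 1 h of Bic it averaged 3253 ± 546 (SD, n = 5). SP TTX cultures held 2816 ± 399 and SP TTX/NMDA cultures 722 ± 122, against 559 ± 58.1 in untreated controls. Bdnf averaged 3946 ± 842 in controls, 4084 ± 838 after 0.5 h and 6420.5 ± 879 after 1 h of Bic, so its TTX/NMDA mean of 2899.8 was under the control mean. The classing of genes by 1 h of Bic against control used libraries outside this comparison, and called 618 of 15184 genes (4.07%), 443 raised (2.92%) and 175 lowered (1.15%). Of the Bic-raised genes 442 could be tested here, and 206 of them (46.6%) were lowered by TTX/NMDA and 31 (7.01%) raised, against 10.7% and 5.99% of all 15163 genes tested in both fits. Of the 120 genes that Bic raised by more than 1 on the log2 scale, 83 (69.2%) were lowered and 10 were raised, with a median log2 change of -0.62. In 79 of those 83 genes the mean under TTX/NMDA was at or below the mean after 0.5 h of Bic, while in 78 of the 83 the mean under TTX was above it. The 83 were chosen as lower under TTX/NMDA than under TTX, which favours both counts. In 75 of the 83 the TTX/NMDA mean was still above the control mean, unlike that of Bdnf. Bic-induced genes made up 12.8% of the lowered genes, and 86.8% of the lowered genes had not been called in either direction by 1 h of Bic. The size of the class moved with single preparations: it held 777 genes without preparation 3, of which 212 (27.3%) were lowered, and 274 without preparation 7, of which 151 (55.1%) were lowered. Without the pairing it held 253 genes, of which 132 were lowered and 10 raised.

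**Figure D2:**
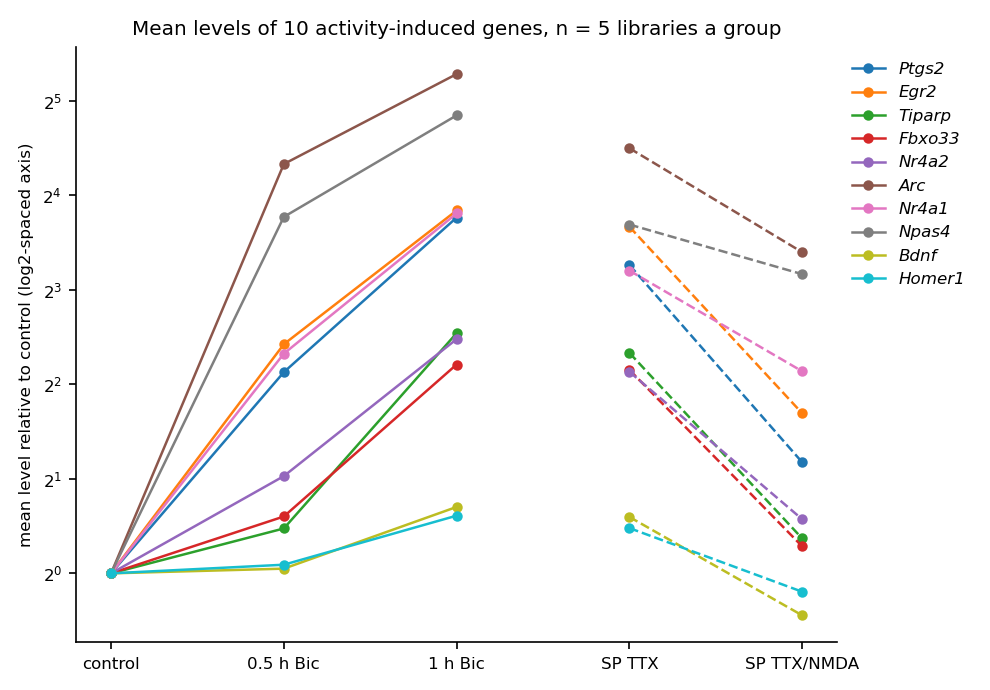
Mean level relative to the untreated control (y axis, log scale) of 10 activity-induced genes in the control, 0.5 h Bic, 1 h Bic, SP TTX and SP TTX/NMDA libraries (x axis), with 5 libraries a group. Solid lines join the Bic times and dashed lines join the parallel SP conditions. Each gene is lower under SP TTX/NMDA than under SP TTX, and Bdnf and Homer1 end below their control level.

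Promoters were searched because the lowered genes include known CREB targets. RefSeq promoters of GRCm38.p6, 250 bases before to 50 bases after a start site, were found for 11557 of the 15705 genes, with 14832 entries where alternative start sites are counted, and each motif was searched on both strands. The palindromic cyclic AMP response element (CRE), TGACGTCA, was present in 3.28% of the 1646 promoters of lowered genes, 2.24% of the 849 of raised genes and 2.95% of those of all genes tested. Among genes that Bic raised and NMDA lowered the share was 8.13% of 209 promoters. The CArG box that SRF binds was in 2.25%, 1.41% and 1.34% of promoters of lowered, raised and all genes, and in 3.83% of those of genes that Bic raised and NMDA lowered. The AP-1 motif TGANTCA was in 4.62%, 6.12% and 5.08% of promoters of lowered, raised and all genes, and in 3.83% of the 209. The TATA box TATAAA was in 7.59%, 9.31% and 7.46%, and in 12.4% of the 209, and the E-box CACGTG in 8.51%, 7.42% and 9.48%, and in 11.96% of the 209. The CRE core TGACG, which the full CRE contains, was in 29.8%, 26.03% and 29.6%, and in 46.4% of the 209. Btg2, Dusp1 and Arl5b carried a full CRE within the 250 bases upstream of a start site, and these stretches are given 5′ to 3′ on the gene's strand with the CRE in capitals.
Btg2 (chr1:134079156-134079405, - strand): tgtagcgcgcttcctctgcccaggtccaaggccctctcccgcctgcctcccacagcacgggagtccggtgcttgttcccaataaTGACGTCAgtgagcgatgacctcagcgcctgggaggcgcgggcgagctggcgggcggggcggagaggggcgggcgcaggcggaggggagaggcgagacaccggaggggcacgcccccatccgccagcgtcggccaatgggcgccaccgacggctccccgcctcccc
Dusp1 (chr17:26508473-26508722, - strand): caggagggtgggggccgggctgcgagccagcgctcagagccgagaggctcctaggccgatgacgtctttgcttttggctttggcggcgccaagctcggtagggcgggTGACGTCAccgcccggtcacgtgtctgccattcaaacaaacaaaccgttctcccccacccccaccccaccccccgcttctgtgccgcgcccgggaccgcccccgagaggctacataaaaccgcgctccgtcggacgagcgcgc
Arl5b (chr2:15055070-15055319, + strand): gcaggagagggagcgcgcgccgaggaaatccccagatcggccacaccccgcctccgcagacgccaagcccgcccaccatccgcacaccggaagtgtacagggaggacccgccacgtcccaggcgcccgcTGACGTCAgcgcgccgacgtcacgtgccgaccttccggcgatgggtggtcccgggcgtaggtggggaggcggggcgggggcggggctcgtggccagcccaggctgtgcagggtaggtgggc
Btg2 and Dusp1 return below as genes whose active effect had the opposite sign in LP. A match of letters describes the promoter and does not show that a factor was bound.

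Markers of excitatory neurons fell while markers of GABAergic interneurons rose. In these bulk samples, fewer cells of a type and less RNA per cell cannot be told apart. Of 9 excitatory markers 7 were lowered (6 without the pairing) and none was raised, with a median log2 change of -0.39. Camk2a, the kinase subunit of excitatory synapses, stood at 48024, 36119.6, 45810.4, 37805 and 43114 under TTX and at 29341, 23159.5, 24646, 21419 and 28886 under TTX/NMDA, a log2 change of -0.71 (SE 0.05, adjusted p = 2.81e-05). Prox1, a marker of dentate granule cells, stood at 1750.1, 2170.0, 2109, 1751 and 1793 under TTX and at 907, 1444, 1600.4, 1168 and 607 under TTX/NMDA, a log2 change of -0.79 (SE 0.14, adjusted p = 0.00359). Tbr1, a transcription factor of glutamatergic neurons, fell from 2005 ± 209.9 to 1407 ± 126, Neurod6 from 10577 ± 1204 to 7888 ± 823 and the vesicular glutamate transporter Slc17a7 from 37122 ± 4308 to 28081 ± 4617 (SD, n = 5). Of 11 interneuron markers 9 were raised and none was lowered, with a median log2 change of 0.38. Without the pairing 4 of the 11 were raised, and leaving out a preparation left 7 or 8 raised. Gad1, which makes GABA from glutamate, stood at 32948, 28002, 24028, 33947 and 25818 under TTX and at 36439, 35277, 43433, 42845 and 31165 under TTX/NMDA, a log2 change of 0.40 (SE 0.09, adjusted p = 0.0112). The conditions overlapped for Gad1 across preparations, and each preparation rose, preparation 6 the most. Sst, the neuropeptide somatostatin, stood at 11135, 11136, 9670.5, 10322 and 8907 under TTX and at 14199.5, 14711, 14199, 16315 and 10811 under TTX/NMDA, a log2 change of 0.47 (SE 0.06, adjusted p = 0.000759). Npy, another neuropeptide, rose from 1197 ± 582 to 1644 ± 744 but was not called without the pairing, and Lhx6, a transcription factor of interneurons from the medial ganglionic eminence, from 3077 ± 257 to 4022 ± 603. The summed interneuron markers divided by the summed excitatory markers gave 0.812, 0.898, 0.678, 0.936 and 0.689 in the TTX libraries and 1.29, 1.53, 1.58, 1.92 and 1.06 in the TTX/NMDA libraries, with no overlap. The same quotient averaged 0.898 ± 0.166 in controls and 0.907 ± 0.0757 after 1 h of Bic (SD, n = 5). General neuronal markers moved less: 2 of 10, Map2 and Nefl, were lowered, and the median log2 change was 0.015.

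Some genes of synapses and excitability were lowered too, against 10.3% lowered and 5.93% raised among all genes. Of 41 potassium channel genes 17 were lowered and 2 were raised (10 and 1 without the pairing, 11 lowered without preparation 1 or 3), with a median log2 change of -0.14. Kcna1, an axonal voltage-gated channel, stood at 3722, 3412, 3953, 4414 and 3654 under TTX and at 1672, 1743, 2003, 1713 and 1746 under TTX/NMDA, a log2 change of -1.09 (SE 0.06, adjusted p = 3.87e-06). Its level in untreated controls was 3277 ± 979, above its TTX/NMDA mean. Kcnj2, an inward rectifier that sets the resting potential, stood at 1197, 1095, 1081, 897 and 1071 under TTX and at 345, 448, 459.7, 417 and 239.7 under TTX/NMDA, a log2 change of -1.49 (SE 0.13, adjusted p = 8.92e-05). Kcna4 fell from 1869.7 ± 273 to 1194 ± 143 and Kcnj6 from 675 ± 56.4 to 463 ± 61.3 (SD, n = 5). Of 28 genes of postsynaptic scaffolds and adhesion 15 were lowered and 1 was raised, with a median log2 change of -0.21. Besides Homer1 they included the adhesion proteins Nlgn1, which fell from 5390.1 ± 344 to 3552 ± 320.2, and Lrrtm2, which fell from 3879 ± 190.1 to 2663 ± 335, and the scaffold Shank3, which fell from 12542 ± 746 to 8813 ± 871. Of 26 genes of synaptic vesicle release 7 were lowered (3 without the pairing, 4 without preparation 1) and none was raised, among them the active zone protein Bsn, from 17593 ± 2742 to 12843 ± 1514.

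Receptor genes were called in both directions. Among 22 ionotropic glutamate receptor genes and their auxiliary subunits 6 were lowered and 5 were raised, with a median log2 change of -0.079. Grin2a, an NMDA receptor subunit, stood at 5121, 4275, 4450.3, 4801 and 4285 under TTX and at 3972, 3231, 4236, 3127 and 3523 under TTX/NMDA, a log2 change of -0.33 (SE 0.07, adjusted p = 0.00933). Grin2b, the other main NMDA receptor subunit of these neurons, stood at 30249, 26301, 19524, 28118 and 28649.8 under TTX and at 22006, 18924, 22173, 17612 and 22442 under TTX/NMDA, a log2 change of -0.34 (SE 0.10, adjusted p = 0.0396). Preparation 6 went the other way for Grin2b, and the call was lost without the pairing or when any preparation but 6 was left out. Without preparation 1 none of the 22 genes was lowered, Grin2a included, and without the pairing 3 were lowered and 3 raised. Grik1, a kainate receptor subunit, rose from 1960.2 ± 205 to 2493 ± 411, and Cacng2, an auxiliary subunit of AMPA receptors, from 4338 ± 297 to 5464 ± 423 (SD, n = 5). Among 15 genes of GABA type A receptors and chloride transport 5 were lowered and none was raised, among them the subunit Gabrb1, which fell from 9196 ± 694 to 6431 ± 877, and 3 were lowered without preparation 1 or 3. Genes for calcium extrusion and mitochondrial calcium uptake were lowered in 8 of 18 cases (5 without the pairing) and raised in none. Slc8a1, a sodium-calcium exchanger, stood at 4199, 3120.4, 3504, 3901 and 4198 under TTX and at 1992, 2053, 2063, 1909.5 and 2230.4 under TTX/NMDA, a log2 change of -0.86 (SE 0.07, adjusted p = 3.81e-05). The plasma membrane calcium pump Atp2b3 fell from 4783 ± 404 to 3101 ± 255 and the potassium-dependent exchanger Slc24a2 from 8349 ± 714 to 5915 ± 1272.

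**Figure D3:**
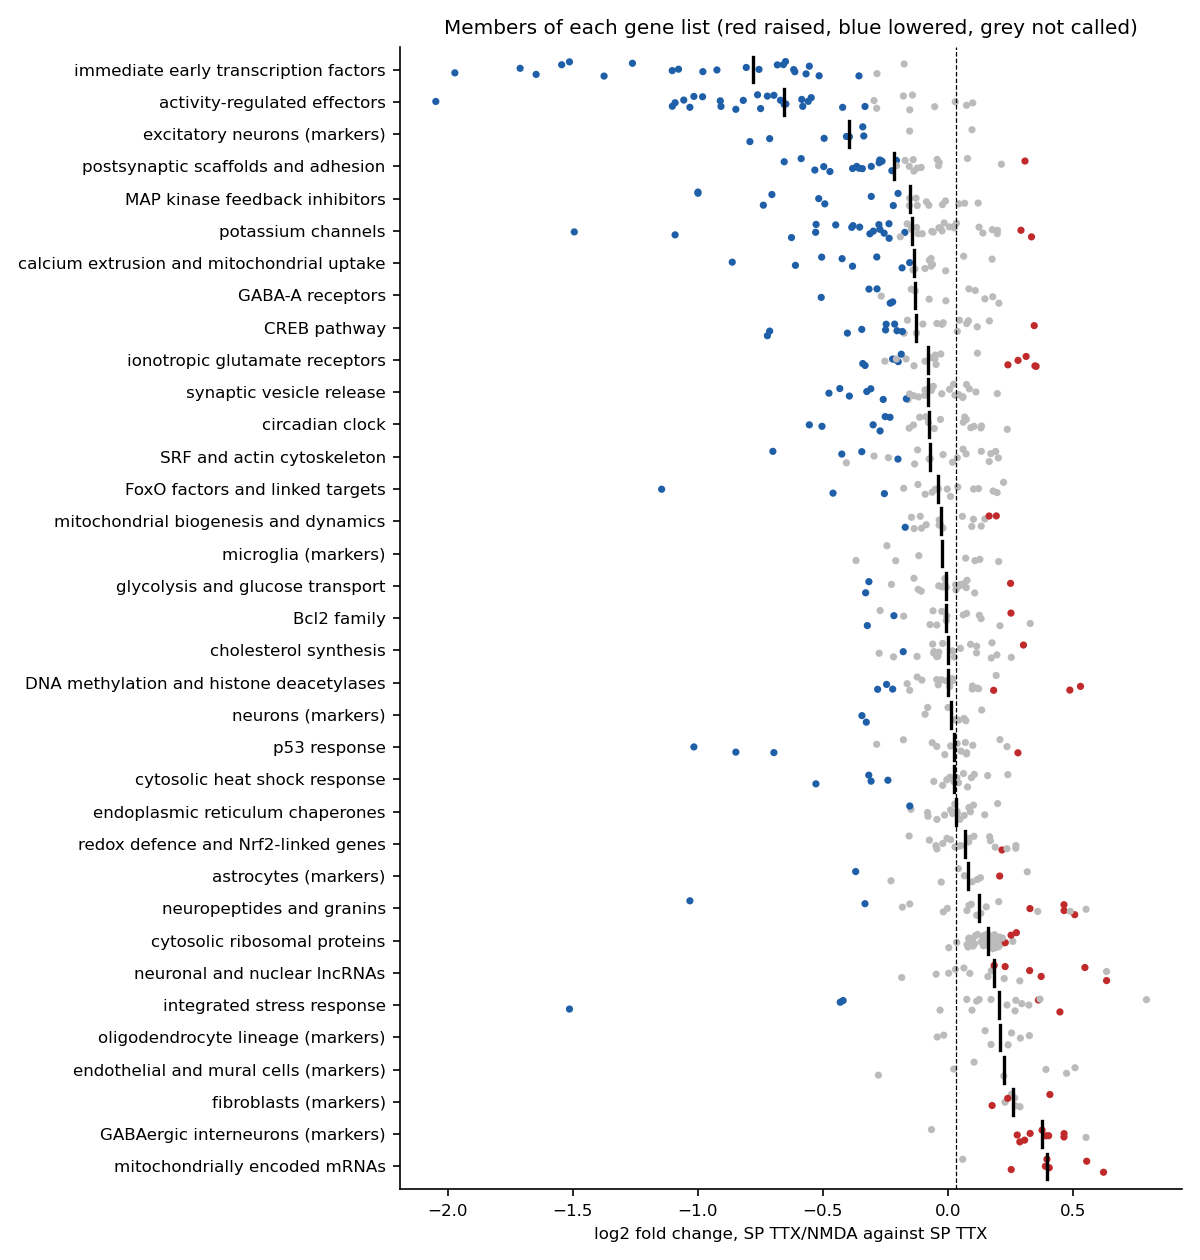
Log2 change of TTX/NMDA against TTX (x axis) for each tested member of 35 gene lists (y axis, ordered by median), with red points raised, blue points lowered and grey points not called. Black ticks are list medians and the dashed line is the median of all genes tested, 0.033; lists range from -0.78 for immediate early transcription factors to 0.40 for mitochondrially encoded mRNAs.

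Among well expressed genes the largest gains were smaller than the largest losses. The 14 largest gains among well expressed genes ran from 0.66 to 1.39 on the log2 scale: A230103L15Rik, Gm21781, Tnfrsf25, C78859, Col15a1, Apold1, Ftx, Rn7sk, AI480526, Slc2a4rg-ps, Gm47033, Mbd6, Insm1 and Gm32444. Only 5 of them, Tnfrsf25, Col15a1, Apold1, Mbd6 and Insm1, are annotated as protein-coding. Apold1 and Mbd6 had also been raised by 1 h of Bic. Tnfrsf25, a death domain receptor of the TNF receptor family, stood at 91.9, 72.2, 67.5, 65.0 and 83.6 under TTX and at 194, 129, 169.9, 189 and 140.5 under TTX/NMDA, a log2 change of 1.11 (SE 0.13, adjusted p = 0.000424). Mbd6, a protein with a methyl-CpG-binding domain, stood at 1159, 1256, 1002, 931 and 1137 under TTX and at 1690.2, 1858, 1942, 1572 and 1685 under TTX/NMDA, a log2 change of 0.70 (SE 0.07, adjusted p = 0.000124). Neither gene overlapped between conditions. Col15a1, a collagen of basement membranes, stood at 690.1, 812, 462, 406 and 588 under TTX and at 1306, 1238, 921, 726 and 1013 under TTX/NMDA, a log2 change of 0.85 (SE 0.06, adjusted p = 2.81e-05). Each preparation rose, although the ranges of the conditions overlapped. Among the non-coding genes, Ftx, a long non-coding RNA of the X-inactivation centre, stood at 219, 249.6, 170.1, 192 and 264 under TTX and at 345, 348, 438, 241 and 448 under TTX/NMDA, a log2 change of 0.76 (SE 0.13, adjusted p = 0.00324). Rn7sk, the 7SK RNA that holds the elongation factor P-TEFb inactive, rose from 79.9 ± 28.5 to 132 ± 42.03 (SD, n = 5), in libraries selected for polyadenylated RNA, and was not called without the pairing. In 11 of these 14 genes the lowest TTX value was that of preparation 6, the most deeply sequenced of the 10 libraries, against 28.5% of all raised genes and 23.9% of all genes tested. The part of that library in these gains was not tested and all 14 genes were also called without preparation 6. Gm47033 lost its call without preparation 1, 3 or 8.

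Of the 17 neuronal and nuclear long non-coding RNAs tested 6 were raised and none was lowered, with a median log2 change of 0.19, and 2 were raised without the pairing. Mirg, a host of microRNAs in an imprinted cluster, stood at 498, 635, 479.7, 505 and 653 under TTX and at 843, 829.7, 752, 812 and 760.3 under TTX/NMDA, a log2 change of 0.55 (SE 0.08, adjusted p = 0.00158). Kcnq1ot1, an imprinted antisense RNA, rose from 337 ± 77.5 to 506 ± 79.0 and Miat from 7789.9 ± 1549 to 9595 ± 1254 (SD, n = 5). The call was lost for Kcnq1ot1 without preparation 1 and for Miat without the pairing, and the count of raised genes went down to 2 without preparation 1 and 3 without preparation 7. Non-coding gene models that lie inside a protein-coding gene on the same strand were raised in 26 of 179 cases and lowered in 8, and reads of an unspliced host transcript cannot be told from theirs.

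Most mRNAs of the mitochondrial genome that could be tested rose. Of 13 mitochondrially encoded mRNAs 7 could be tested, and 6 were raised and none was lowered, with a median log2 change of 0.40. mt-Cytb, which encodes cytochrome b, stood at 38012, 45984, 54531, 62387 and 34975 under TTX and at 65590.1, 62110.5, 78218, 92326 and 45894 under TTX/NMDA, a log2 change of 0.56 (SE 0.06, adjusted p = 0.000233). Preparations differed in level but each of the 5 rose. mt-Nd4, a subunit of complex I, stood at 10761, 16948, 20361, 22352 and 12312 under TTX and at 23921, 22791, 28947, 33029 and 16157 under TTX/NMDA, a log2 change of 0.62 (SE 0.09, adjusted p = 0.00175). Without the pairing none of the 7 was called, but 3 were raised when all genes with at least 1 read were tested without it. Together the 13 mRNAs took 0.512, 0.610, 0.743, 0.815 and 0.506 percent of all counts in the TTX libraries and 0.845, 0.775, 0.996, 1.12 and 0.648 percent in the TTX/NMDA libraries. Of 46 cytosolic ribosomal protein genes 5 were raised (10.9%, against 5.93% of all genes) and none was lowered, and their estimates ran from 0.0042 to 0.27 on the log2 scale with a median of 0.16. That count was decided by single preparations, at 32 without preparation 6, 7 without 8, 3 without 7, 1 without 1 and 0 without 3. Rps14, a protein of the small subunit, rose from 7266 ± 688 to 8697 ± 836 (SD, n = 5), and lost its call without preparation 1 or 3.

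Lists of cell stress, death and metabolism followed, against 10.3% lowered and 5.93% raised among all genes, and many of their counts moved with single preparations. In the Bcl2 family, which governs mitochondrial apoptosis, 2 of 17 genes were lowered and 1 was raised (5 and 2 without preparation 6). Mcl1, a survival factor, stood at 4298, 4859, 4981, 5143 and 4826 under TTX and at 3303, 3935, 3766, 4153 and 3934 under TTX/NMDA, a log2 change of -0.32 (SE 0.04, adjusted p = 0.00093). Bax, a pore former of apoptosis, rose from 1457 ± 58.0 to 1722 ± 145 (SD, n = 5), in 4 of 5 preparations, a call lost when preparation 1, 3, 7 or 8 was left out. In the p53 response 3 of 18 genes were lowered and 1 was raised, and the lowered ones, Btg2, Gadd45b and Plk2, were all raised by 1 h of Bic. In the integrated stress response 3 of 18 were lowered, led by Atf3, which fell from 1704 ± 678 to 595 ± 288, and 2 were raised, among them Nupr1, from 159.7 ± 46.3 to 219 ± 68.0, a call lost without the pairing or without preparation 1, 3 or 7. The raised count of that list was 4 without preparation 6, 1 without 7 and 0 without 1 or 3, and 10 when all genes with at least 1 read were tested with the pairing. Endoplasmic reticulum chaperones had 1 of 18 lowered (2 without preparation 6, 0 without any other), and the cytosolic heat shock response 4 of 18 (1 without preparation 1, 2 without 7), led by the chaperone Dnajb1, from 3343 ± 204 to 2301 ± 233. Redox defence genes had 1 of 20 raised, Hmox1, from 846 ± 94.3 to 972 ± 69.6, also lost without the pairing or without preparation 1, 3 or 7, while 4 were raised without preparation 6. FoxO factors and linked targets had 3 of 17 lowered, among them Foxo1, from 2382 ± 85.6 to 1719.9 ± 214, besides Irs2. Glycolysis and glucose transport had 2 of 21 lowered, led by the neuronal glucose transporter Slc2a3, from 9994 ± 502 to 7868 ± 376, and 1 raised. Cholesterol synthesis had 1 of 22 lowered and 1 raised, but 12 lowered and 2 raised without preparation 6, and none called without 3 or 7. Mitochondrial biogenesis and dynamics had 1 of 17 lowered and 2 raised, which became 2 and 3 without preparation 6 and none without any other preparation. DNA methylation and histone deacetylase genes had 3 of 22 raised, including Hdac7, from 499 ± 42.7 to 696 ± 63.8, and 3 lowered, counts that went down to 1 and 1 without preparation 1, while 6 were lowered without preparation 6. Clock genes had 6 of 21 lowered, led by Per1, from 5027 ± 745 to 3375 ± 367, and Per2, from 939 ± 155 to 655 ± 101. Among 20 neuropeptide and granin genes 4 were raised, including Tac1, from 1053 ± 64.8 to 1503 ± 367, and 2 were lowered, Bdnf among them. The raised count was 7 without preparation 6 and 2 without the pairing.

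Calls among markers of glia and other cells differed between fits, most of all when preparation 6 was left out. Of 10 astrocyte markers the glutamate transporter Slc1a2 was lowered, from 20565 ± 981 to 15746 ± 575, and the glutamate transporter Slc1a3 was raised, from 7629 ± 1351 to 8784 ± 2000.2 (SD, n = 5), the latter not without the pairing or without preparation 1, 3 or 7. The summed astrocyte markers took 0.164% to 0.233% of counts under TTX and 0.157% to 0.277% under TTX/NMDA. None of 8 oligodendrocyte lineage, 8 microglial and 7 endothelial or mural markers tested was called in the main paired fit. With all 45 libraries in 1 paired fit 2 of 7 endothelial or mural markers were raised and 1 was lowered. The paired fit of all genes with at least 1 read raised 2 of 10 oligodendrocyte lineage and 2 of 10 endothelial or mural markers. Without preparation 8, 1 of 8 oligodendrocyte lineage markers was raised. Without preparation 6, 4 of 10 astrocyte, 5 of 8 oligodendrocyte lineage and 3 of 7 endothelial or mural markers were raised, 1 astrocyte and 1 endothelial or mural marker were lowered, and no microglial marker was called. Of 8 fibroblast markers 3 were raised, Dcn, Postn and Fn1, and the sum of the 8 took 0.0161% to 0.0385% of counts under TTX and 0.0195% to 0.0566% under TTX/NMDA. None of the 8 was called without the pairing or without preparation 1 or 3, 1 was without preparation 7 or 8, and all 8 were without preparation 6.

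Lowered genes were long. The median genomic span was 69469 bases for lowered genes, 13425.5 for raised genes and 23120 for all genes tested, and the median exonic length was 7046, 3363 and 4296 bases. With genes ordered by span in 5 bins of equal size, from the shortest to the longest bin, the share lowered went from 4.14% to 24.6%, and the share raised from 9.52% to 4.62%. Longer genes also had higher counts, and the share lowered went from 1.05% to 24.4% from the lowest to the highest of 5 bins by level. Among genes at or above the median level, the share lowered still went from 7.45% in the shortest to 36.2% in the longest bin. Among genes not called by 1 h of Bic it went from 2.2% to 25.1%.

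**Figure D4:**
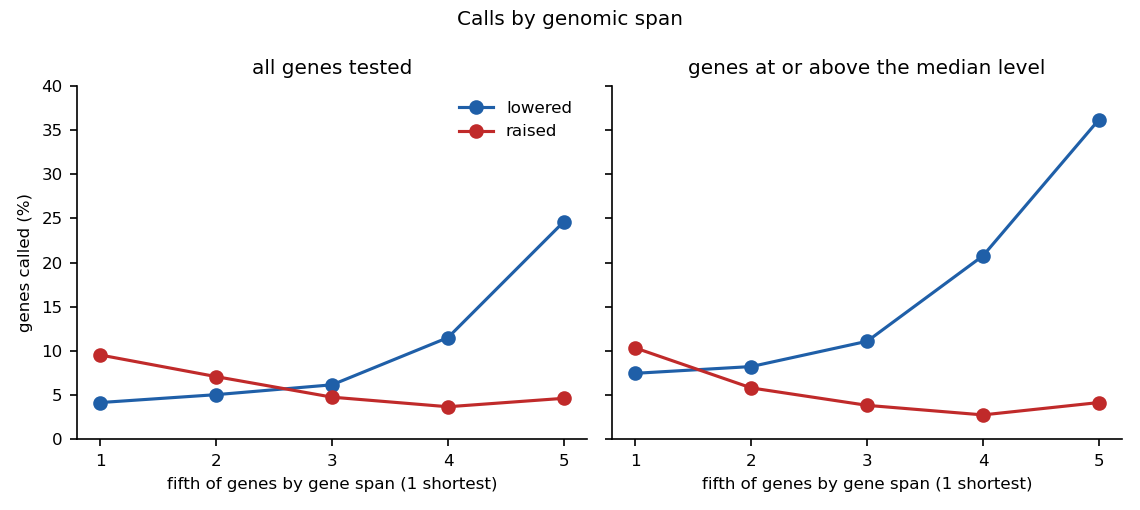
Percent of genes lowered (blue) and raised (red) by TTX/NMDA (y axis) in 5 equal bins of genes ordered by genomic span (x axis), for all genes tested (left) and for genes at or above the median level (right). The share lowered climbs with span, to 24.6% on the left and 36.2% on the right.

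The active effect in SP was then set against that in LP. The LP libraries share no sample with those of SP but come from the same preparations. The protocols differ in the time of Bic before the bath as well as in the bath itself. LP minus SP therefore cannot tell a longer bath from longer firing before it. In LP, 10184 of 16399 genes were called (62.1%), 4674 lowered (28.5%) and 5510 raised (33.6%). Of the genes lowered in SP 93.9% were lowered in LP, and these were 32.7% of the genes lowered in LP. Of the genes raised in SP 85.2% were raised in LP, which made 15.1% of the genes raised there. Genes lowered in SP had a median log2 change of -0.28 in SP and -0.52 in LP. The difference itself, LP minus SP, was tested across 16663 genes and was called for 4165 (25%), 1641 above 0 (9.85%) and 2524 below 0 (15.1%). Without the pairing 323 genes were called above 0 and 926 below 0, and single preparations moved these counts too, to 1019 above and 1548 below without preparation 1, 1632 below without 3 and 1315 below without 8.

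A set of 55 genes was called in both protocols with opposite signs, and the difference between the protocols was called for all 55. Lowered in SP and raised in LP were 35 genes, and all 35 belonged to the class raised by 1 h of Bic. Btg2 had a log2 change of -1.02 (SE 0.07) in SP and 2.71 (SE 0.10) in LP, a difference of 3.68 (SE 0.18, adjusted p = 3.81e-11). Its SP values were 8761, 9181, 7112, 7593 and 7893 under TTX and 3884, 4990.5, 2957, 4343 and 3845 under TTX/NMDA, while in LP it averaged 1474 ± 402 under TTX and 9300.0 ± 637 under TTX/NMDA (SD, n = 5). The potassium channel Kcnj2 had -1.49 in SP and 1.41 in LP, the pseudokinase Trib1 -1.06 and 1.74, the phosphatase Dusp1 -0.52 and 2.27, and the zinc finger factor Klf4 -0.61 and 2.30 on the log2 scale. Nr4a1, Arc, Fos and Npas4 turned as well, from -1.08, -1.10, -0.62 and -0.51 in SP to 1.40, 1.17, 0.19 and 0.28 in LP. Klf4 was lower in SP in 4 of 5 preparations, and its SP call was lost without the pairing and without preparation 1, 3, 7 or 8. Other induced genes stayed down. Bdnf had a log2 change of -1.03 in SP and -1.30 in LP, a difference that was not called (adjusted p = 0.0641). Homer1 and Inhba fell further, from -0.65 and -0.75 in SP to -2.01 and -2.16 in LP, with adjusted p = 2.86e-06 and 4.03e-06 for the difference. In the other direction, 20 genes were raised in SP and lowered in LP, with Insm1, a zinc finger factor of neuroendocrine cells, at 0.69 in SP and -1.31 in LP.

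**Figure D5:**
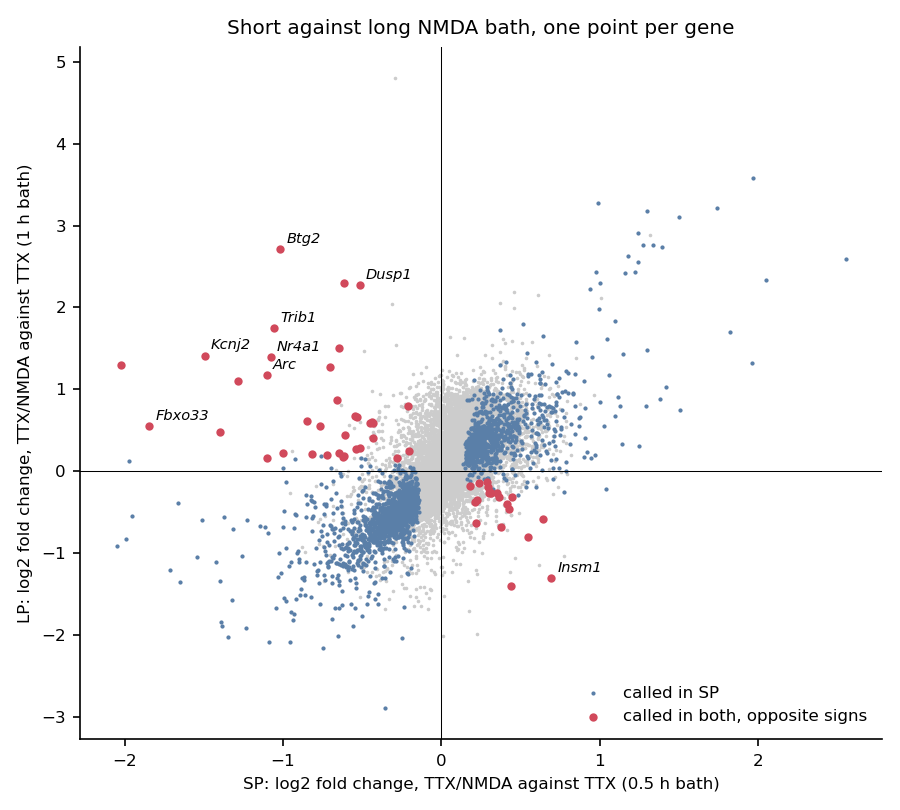
Log2 change of TTX/NMDA against TTX in the short protocol (x axis) and in the long protocol (y axis), 1 point per gene tested in both. Blue points were called in SP, and red points are the 55 genes called in both with opposite signs, of which 35 lie at the upper left, among them Btg2, Kcnj2 and Trib1.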

How the data were processed

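The deposited values are raw read counts per gene of 45 libraries of polyadenylated RNA, which the authors made with STAR 2.5.4b and featureCounts 1.6.5 on GRCm38, by strand and without multi-mapping or multi-overlapping reads. Counts of the 10 SP libraries, 23060670 to 74009760 per library, were tested with edgeR 4.0.16 (TMM scaling, filterByExpr, quasi-likelihood test, R 4.3.3) with culture preparation as a block and Benjamini-Hochberg adjustment. The labels give the preparation number, and deviations from group means correlated at 0.382, 0.313, 0.0579, 0.303 and 0.637 within preparations 1, 3, 6, 7 and 8 and at -0.0842 on average between them. The study's own test was DESeq2 without a block, so the block is a choice made here. LP, LP minus SP and 1 h of Bic were tested likewise. Normalized counts are TMM-scaled over 45 libraries to the mean effective size of the 10. On simulated counts for the SP comparison (15705 genes), the test recovered 42%, 86%, 94% and 98% of genes changed by 1.25, 1.5, 2 and 4 times, and 3.61% of its calls were false. For LP minus SP (16663 genes) it recovered 30%, 64%, 74% and 98%. There 8.28% of its calls were false, so the counts of LP minus SP are less certain.

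Named genes are the 14 largest called changes each way with a mean count of at least 100 and the same direction in all 5 preparations, up to 4 called members per list, 11 activity genes such as Bdnf and Arc, and the 5 largest LP minus SP differences with opposite signs. Mir132, Mir212, the marker levels, the promoters printed and the gene families of the closing section were chosen after their values were seen. 1 gene that the rule names is not reported here. Members, lists and tests were chosen with earlier results of these data known. List symbols that name more than 1 gene ID (Ddit3, Aldoa) were left out. Spans come from GENCODE (54495 of 54532 genes matched), sequences from RefSeq. Alternatives were no block, no filter on low counts, DESeq2 1.42.0 and its size factors, all 45 libraries in 1 fit, and each preparation left out.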

Additional observations from a re-analysis of the deposited data

Results flagged for a closer look

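The active effect differed between the long and the short protocol for 55 of the genes named (edgeR quasi-likelihood test of LP minus SP paired by preparation, adjusted p under 0.05). Positive values of LP minus SP on the log2 scale belonged mostly to firing-induced genes lowered in SP and lowered less or raised in LP. They were Btg2 3.68, Kcnj2 2.90, Klf4 2.87, Trib1 2.77, Dusp1 2.74, Nr4a1 2.43, Fbxo33 2.38, Arc 2.21, Egr2 2.04, Dusp6 1.93, Adamts1 1.86, Tiparp 1.38, Spty2d1 1.252, Dusp5 1.19, Ptgs2 1.11, Egr1 1.04, Sik1 0.89, Atf3 0.87, Fosb 0.79, Fos 0.78, Npas4 0.78, Plk2 0.72, Nr4a2 0.48, Egr3 0.48, Irs2 0.45 and Gadd45b 0.42. Positive values also belonged to genes raised in SP, at A230103L15Rik 1.34, Slc1a3 0.72, Kcnq1ot1 0.56, mt-Nd4 0.45, mt-Cytb 0.36, Bax 0.27 and Rps14 0.23.

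Negative values of LP minus SP belonged to genes of channels, receptors, synapses and excitatory neurons that were lowered further in LP. They also belonged to Inhba, Homer1, Per2, Slc2a3 and Ppp1r15b. These values were Inhba -1.42, Homer1 -1.36, Per2 -1.27, Kcna4 -1.02, Kcna1 -1.004, Slc8a1 -0.66, Kcnj6 -0.65, Slc2a3 -0.64, Sv2b -0.60, Atp2b3 -0.54, Grin2a -0.51, Grin2b -0.51, Tbr1 -0.51, Slc24a2 -0.47, Slc17a7 -0.43, Gabrb1 -0.41, Camk2a -0.41, Nlgn1 -0.39, Ppp1r15b -0.33 and Bsn -0.27. Negative values also belonged to genes raised in SP, at Insm1 -2.04 and Mirg -0.39. Ppp1r15b, a regulatory subunit of an eIF2alpha phosphatase, and Sv2b, a synaptic vesicle protein, had SP log2 changes of -0.42 and -0.48.

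In 10 of 194 sets of 5 libraries, 1 library stood apart from the other 4 in the normalized count of a named gene (Dixon's criterion, which chance meets in about 1 of 20 sets). These were Spty2d1 at 3792 under TTX in preparation 6, AI480526 at 286 under TTX/NMDA in preparation 7, Bdnf at 7260.2 under TTX in preparation 7, Errfi1 at 3051 under TTX in preparation 1, Kcna1 at 2003 under TTX/NMDA in preparation 6, Kcnj6 at 359 under TTX/NMDA in preparation 7, Slc24a2 at 9580.2 under TTX in preparation 1, Tac1 at 941 under TTX in preparation 8, Tac1 at 2117 under TTX/NMDA in preparation 6 and Miat at 10444 under TTX in preparation 3. By preparation they fell 2, 1, 3, 3 and 1 times in preparations 1, 3, 6, 7 and 8.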

How the results depend on the processing

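Without the replicate block, pairing being dropped, the SP effect counted 345 genes raised and 1063 lowered (308 and 1071 with all genes of at least 1 read), LP minus SP 323 above 0 and 926 below 0, and the class raised by 1 h of Bic 253 genes, of which 10 were raised and 132 lowered. DESeq2's Wald test called 599 genes raised with the block and 451 raised without it on all genes of at least 1 read. Leaving out each preparation in turn gave 283 to 1743 genes raised and 827 to 2136 lowered, 1019 to 1600 above 0 and 1315 to 2056 below 0 for LP minus SP, and a Bic-raised class of 274 to 777 genes with 11 to 35 raised and 143 to 212 lowered. The lowest LP minus SP counts were 1019 without preparation 1 (above) and 1315 without preparation 8 (below), and the Bic-raised class had 13 raised genes without preparation 1 and 11 without preparation 7. DESeq2 size factors, all 45 libraries in 1 fit, and the block with all genes of at least 1 read kept the total SP counts within 1.5 times, but not those of each list: with the block on all genes of at least 1 read the integrated stress response went from 2 to 10 raised and ribosomal proteins from 5 to 16, and with all 45 libraries neuropeptides went from 4 to 8 raised. Across 97 named genes and all alternatives, 1102 of 1164 values stayed on their side of the threshold, 62 lost the call and 0 changed sign, and 80 genes were called throughout. Without the block 12 of the 97 lost the call: Rn7sk, Klf4, Rcan2, Grin2b, Sv2b, mt-Nd4, mt-Cytb, Nupr1, Hmox1, Npy, Slc1a3 and Miat. The cause was not tested beyond the alternatives' own construction. In the simulations, 42% of genes changed by 1.25 times were recovered for SP and 30% for LP minus SP, so small changes can go uncalled. Reads of 75 bases counted per gene do not separate isoforms, and the 5 libraries a group are cultures of separate preparations.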

Other observations

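Further gene families were looked at after their values were seen, so their counts are descriptions without a test of the family. They stand beside 10.3% lowered and 5.93% raised among all genes. Some of their genes, such as Dlx1, Dlx2 and Col1a1, also belong to the marker lists above. Clustered protocadherins, adhesion proteins that give neurons surface identities, were lowered in 10 of 13 genes of the alpha cluster (median log2 change -0.39) and 19 of 22 of the gamma cluster (-0.46), but in 3 of 22 of the beta cluster (-0.04). Pcdhgc5 fell from 1582 ± 288 to 979 ± 267 and Pcdhga11 from 1600.3 ± 133 to 1047 ± 47.9 normalized counts (SD, n = 5), both lower in 5 of 5 preparations. Genes of the alpha and gamma clusters share constant exons within their cluster. Reads that overlap more than 1 gene were not counted, so the single counts leave out these shared exons. The Klf family of zinc finger factors was lowered in 8 of 15 genes (-0.28) and the Usp deubiquitinases in 12 of 46, with 1 raised.

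Collagen genes, which make extracellular matrix, were raised in 12 of 41 cases and lowered in 0 (median log2 change 0.28). The fibroblast markers Col1a1, Col1a2 and Col3a1 among them were not called. The family was not counted with single preparations left out, which moved the calls of the fibroblast markers. All 4 tested Dlx genes, transcription factors of interneuron development, were raised: Dlx5 rose from 340.5 ± 57.8 to 463 ± 85.7, Dlx6 from 292 ± 49.3 to 389 ± 39.2, Dlx1 from 1410.5 ± 125 to 1697 ± 217 and Dlx2 from 515 ± 75.9 to 628 ± 77.2 (SD, n = 5), the last in 4 of 5 preparations and only just past the threshold. Nuclear genes of mitochondrial ribosomes were raised in 10 of 77 cases, and those named Cox in 7 of 23, with 0 lowered in either family.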
